A study of Bos taurus with 6 samples.

Results

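The DREAM and MuvB genes encode a set of proteins that switch cell cycle genes off and on, and their mRNA levels are described here in bovine blastocysts obtained after oocyte maturation with or without melatonin (MT). The members were the rows of the deposited expression table whose gene name was LIN9, LIN37, LIN52, LIN54, RBBP4, MYBL2, FOXM1, E2F4, RBL1 or RBL2. All 10 were found, each under 1 Ensembl identifier, among 36075 genes in the table. The list was drawn up with the difference between MT-treated and control blastocysts already known, so the values of its members are given as a description and without a test.

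Control blastocysts came from oocytes matured without MT, and in the MT-treated group 1e-07 mol/L MT was present during the 22 h of oocyte maturation. As the paper describes it, the embryos of both groups were otherwise produced in the same way, from slaughterhouse ovaries through in vitro maturation, fertilization and culture to the blastocyst stage. Each group had 3 libraries, labelled rep1 to rep3, and each library was a pool of 3 blastocysts. The libraries of a group came from 3 in vitro production runs, in each of which pooled oocytes were divided among the treatments and matured side by side, and the labels do not say which libraries of the groups share a run. The concentration, times, pool size and runs come from the paper, and of this design the labels give only the group and the replicate number. A pool of whole blastocysts mixes inner cell mass, trophectoderm and hypoblast cells, so that fewer cells of a type and less RNA per cell cannot be told apart in any value below.

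MuvB is a core of LIN9, LIN37, LIN52, LIN54 and RBBP4 that does not act alone. In resting cells and in early G1 it joins a pocket protein, RBL1 (p107) or RBL2 (p130), with E2F4 and its dimer partner, and this assembly, called DREAM, holds cell cycle genes silent. In dividing cells the pocket protein and E2F leave, and the same core binds MYBL2 (B-MYB) and later FOXM1, which turn on the genes of G2 and mitosis. The cells of a preimplantation embryo divide fast, and MYBL2 is known as the MYB protein of early embryonic and stem cells.

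Levels are in TPM, transcript abundance scaled to the length of the gene and to the total of the library, which corrects for gene length, so different genes can be compared within a library. The deposited TPM summed to between 936783 and 937698 in control libraries and to between 912686 and 913707 in the MT-treated libraries. TPM keeps no counts, so the depth behind a value cannot be read from the table, and the read totals of the libraries are not used here. Between 8854 and 8953 genes were above 0 in the control libraries, and between 14372 and 14408 in the MT-treated libraries. The genes tested were the 11953 that reached 1 TPM in 3 or more libraries, and of these 33.8% were listed at 0 in every control library and 3.01% in every MT-treated library. Over the genes tested, Pearson's r of log2(TPM + 1) between libraries of 1 group was 0.998 to 0.999 in control and 0.991 to 0.993 in MT-treated blastocysts, while between libraries of different groups it was 0.544 to 0.546 (a correlation over genes, and genes are no independent replicates). The sources used here do not say whether the libraries of both groups were prepared and processed together, and a difference in these steps cannot be told apart from MT in any comparison below. A value of 0 can be an estimate that failed, so such genes are described only as listed at 0. Of 10 housekeeping genes, all above 1 TPM on average in both groups, 4 had a higher and 6 a lower log2 level after MT, from -1.89 for TBP to 1.73 for POLR2A, and the split was 7 and 3 after median centring and 3 and 7 with quantile normalization (both scalings are described below).

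Of the markers of the blastocyst, the trophectoderm gene CDX2 and the inner cell mass gene NANOG were listed at 0 in all control libraries, with 15.0 to 17.2 TPM and 8.23 to 8.93 TPM in MT-treated libraries. The trophectoderm markers summed to 11446 to 11787 TPM in control and 10661 to 11010 TPM in MT-treated libraries (7 genes), a sum set mostly by the keratin genes. Of these markers KRT8 alone had a lower mean TPM in MT-treated libraries, 6905 ± 133 TPM beside 8695 ± 145 TPM in control (SD, n = 3 each), and the means of the other 6 were higher, GATA2 with 49.1 ± 1.29 TPM beside 7.07 ± 0.506 TPM. The inner cell mass markers summed to 246 to 250.2 TPM in control and 232 to 237 TPM in MT-treated libraries (5 genes). POU5F1 made up most of this sum, with 189.8 ± 1.49 and 192.6 ± 1.83 TPM, while SALL4 had 56.8 ± 1.598 and 26.6 ± 0.401 TPM and SOX2 0.00667 ± 0.0115 and 6.54 ± 0.579 TPM (SD, n = 3 each). The 5 hypoblast markers summed to 0.20 to 0.44 TPM in control and 61.2 to 69.6 TPM in MT-treated libraries, with GATA4, SOX17, PDGFRA and HNF4A listed at 0 in all control libraries and GATA4 also in all MT-treated libraries. Cumulus and granulosa markers summed to 229.6 to 235.9 TPM in control and 201.6 to 205.8 TPM in MT-treated libraries over 10 genes, of which INHA, FOXL2, HAS2, PTX3 and TNFAIP6 were listed at 0 in all 6 libraries. Nearly all of this sum came from HSD3B1, CYP11A1 and FSHR. In control and MT-treated libraries HSD3B1 had means of 136.0 and 105.5 TPM and FSHR 18.2 and 16.0 TPM. CYP11A1 went the other way, with 78.7 and 82.4 TPM. Maternal oocyte markers summed to 45.6 to 49.3 TPM and 21.6 to 24.0 TPM (10 genes), nearly all from OOEP with 47.7 ± 1.92 and 21.3 ± 1.08 TPM (SD, n = 3 each), while BMP15, ZAR1 and KPNA7 had 0 in control and means under 1 TPM in MT-treated libraries, and GDF9, ZP2, ZP3, ZP4, NLRP5 and NPM2 were listed at 0 in all 6 libraries. The part of these markers in the differences below was not tested.

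Of the 10 members, 7 reached the level required for testing, and LIN52, FOXM1 and RBL2 did not. The 7 include LIN9, which passed through its control values alone, and LIN54 and RBL1, which passed through their MT-treated values alone. All 7 had MT-treated values that lay apart from the control values, as did 96.1% of all genes tested. Of the 7, 3 had a positive and 4 a negative log2 difference, MT-treated minus control. Among all genes tested, 95.7% were called by limma at an adjusted p-value under 0.05 with Benjamini-Hochberg adjustment, 61.6% higher and 34.1% lower. Since the members were chosen on this contrast, nothing is read from their counts. The signs moved with the scaling, to 4 positive and 3 negative when each library was centred on the median of the genes with at least 1 TPM in all 6 libraries, and to 2 positive and 5 negative with quantile normalization, which forces 1 shared distribution on the 6 libraries. Over all genes tested, 70.4% were then called higher and 25.4% lower with centring, and 46.4% higher and 44.4% lower with quantile normalization.

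**Figure D1:**
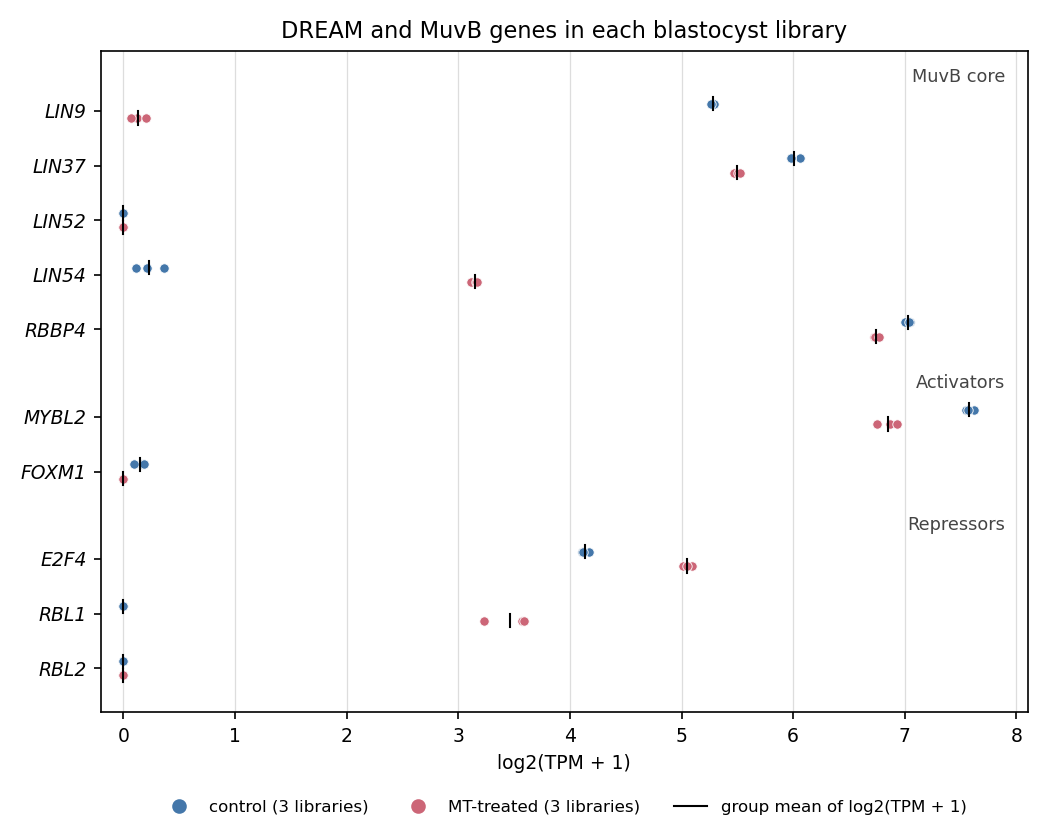
Level of the 10 DREAM and MuvB genes in log2(TPM + 1), with 1 point for each of the 3 control libraries (blue) and the 3 MT-treated libraries (red) and a black tick at the group mean. LIN9 is near 0 in the MT-treated libraries, LIN54 and RBL1 are at or near 0 in the control libraries, and LIN52 and RBL2 are at 0 in all 6.

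In the MuvB core, the scaffold gene LIN9 (ENSBTAG00000033267), whose product binds both MYBL2 and the rest of the core, showed the largest difference of the members tested. It had 37.9, 38.1 and 37.5 TPM in control and 0.09, 0.15 and 0.05 TPM in MT-treated libraries. The coefficient of variation of the control values was 0.855%, and every MT-treated value was under 0.2 TPM. The log2 difference, MT-treated minus control on the log2(TPM + 1) scale, was -5.15 (standard error 0.04), and it was -4.67 after centring and -5.09 with quantile normalization.

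LIN54 (ENSBTAG00000010546), the subunit that contacts DNA at the cell cycle homology element of target promoters, went the other way. It had 0.29, 0.16 and 0.08 TPM in control and 7.66, 7.93 and 7.97 TPM in MT-treated libraries, a log2 difference of 2.92 (standard error 0.07). The difference was 4.92 with a pseudocount of 0.1 and turned to -0.31 with quantile normalization.

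LIN37 (ENSBTAG00000018594), a subunit known to be needed for repression by DREAM, had 65.7, 62.2 and 62.3 TPM in control and 43.5, 44.4 and 45.0 TPM in MT-treated libraries. RBBP4 (ENSBTAG00000005904), a histone-binding WD40 protein that also serves in other chromatin complexes, had 126.8, 131.6 and 130.7 TPM in control and 104.5, 105.5 and 108.0 TPM in MT-treated libraries. These were the steadiest members of the core. The log2 difference was -0.51 (standard error 0.03) for LIN37 and -0.29 (standard error 0.02) for RBBP4. After median centring it was -0.03 for LIN37 and reversed to 0.19 for RBBP4, and with quantile normalization it was -0.20 and -0.01. Within a library, RBBP4 was 2.05 ± 0.102 times as abundant as LIN37 in control and 2.39 ± 0.0169 times in MT-treated blastocysts (SD, n = 3 each).

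LIN52 (ENSBTAG00000030557), the small subunit through which the core is joined to a pocket protein, was listed at 0 in all 6 libraries. The core as a whole, summed over its 5 genes, had 231 ± 0.819 TPM in control and 158 ± 2.63 TPM in MT-treated blastocysts (SD, n = 3 each). RBBP4 made up 56.1% ± 1.003 of this sum in control and 67.0% ± 0.195 in MT-treated blastocysts, and LIN37 27.4% ± 0.905 and 28.0% ± 0.117. LIN9 fell from 16.4% ± 0.103 of the sum to 0.0613% ± 0.0321, while LIN54 had 0.0765% ± 0.0460 in control and 4.96% ± 0.0508 in MT-treated blastocysts. No library therefore listed all 5 core genes above 0, and none had LIN9 and LIN54 both at 1 TPM or more.

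Of the activators that bind the core, MYBL2 (ENSBTAG00000007783) was the most abundant member in each of the 6 libraries. It had 195.9, 186.7 and 188.1 TPM in control and 115.6, 107.0 and 120.9 TPM in MT-treated libraries. The log2 difference was -0.73 (standard error 0.05), with -0.25 after median centring and -0.47 with quantile normalization. FOXM1 (ENSBTAG00000015875), the forkhead activator of mitotic genes, had 0.12, 0.14 and 0.07 TPM in control and was listed at 0 in each MT-treated library, so neither group reached the level required for testing.

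Among the repressors, E2F4 (ENSBTAG00000012063), the E2F protein of DREAM, had 16.2, 17.0 and 16.3 TPM in control and 31.4, 33.1 and 32.1 TPM in MT-treated libraries. Its log2 difference was 0.92 (standard error 0.03), between 0.89 and 1.40 under centring and quantile normalization. RBL1 (ENSBTAG00000011541), which encodes the pocket protein p107, was listed at 0 in every control library, while MT-treated libraries had 10.9, 11.01 and 8.39 TPM. MT-treated replicate 3 was the lowest, and the coefficient of variation of 14.7% exceeded the median of 5.24% over genes with a mean of at least 1 TPM in that group. RBL2 (ENSBTAG00000016243), which encodes p130, the usual pocket protein of DREAM in resting cells, was listed at 0 in all 6 libraries. Together the 3 repressors summed to 16.5 ± 0.437 TPM in control and 42.3 ± 1.78 TPM in MT-treated blastocysts (SD, n = 3 each), and the activators to 190.3 ± 4.97 and 114.5 ± 7.05 TPM. The repressor sum in control was E2F4 alone, and the activator sums came almost wholly from MYBL2. MYBL2 was 11.5 ± 0.55 times as abundant as E2F4 within a control library and 3.56 ± 0.286 times within an MT-treated library.

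The order of the levels in control blastocysts was MYBL2, RBBP4, LIN37, LIN9, E2F4, LIN54 and FOXM1, followed by the 3 genes listed at 0. LIN54 and FOXM1 overlapped in range, and each of the other neighbors above 0 lay apart. In MT-treated blastocysts the order was MYBL2, RBBP4, LIN37, E2F4, RBL1, LIN54 and LIN9. There the ranges of MYBL2 and RBBP4 overlapped across libraries, although MYBL2 was the higher of the pair within each library. The mean of MYBL2 was 1.47 times that of RBBP4 in control and 1.08 times in MT-treated blastocysts. The leading 3 genes kept their places in both groups, as did LIN54 at place 6. LIN9 went from place 4 to 7 and E2F4 from 5 to 4, RBL1 took place 5 in MT-treated blastocysts, and FOXM1 joined the genes listed at 0.

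**Figure D2:**
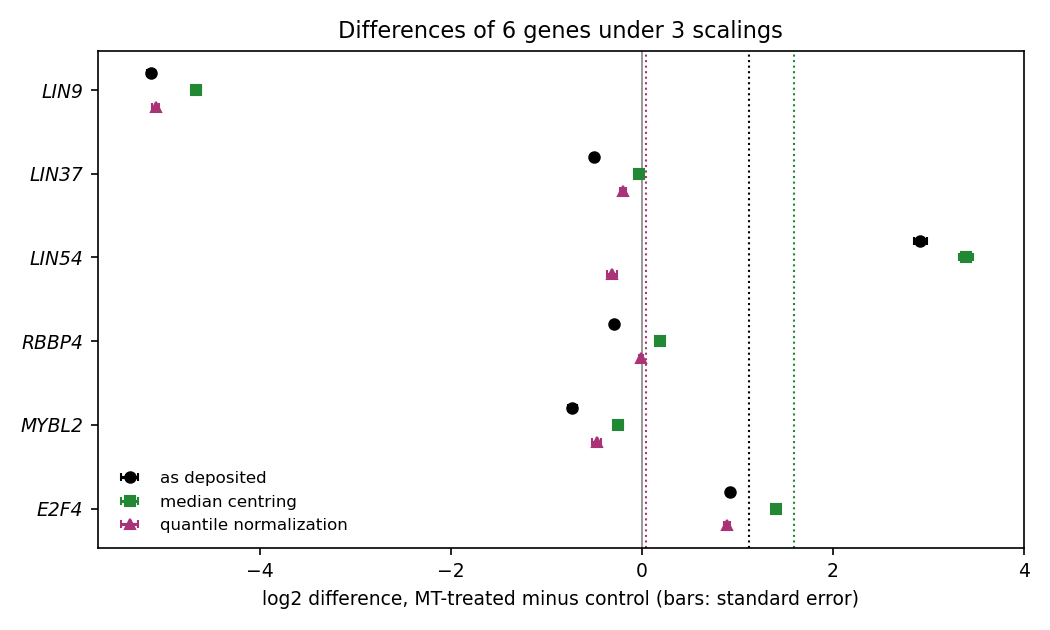
Log2 difference (MT-treated minus control, x axis) of the 6 members that could be tested and were not listed at 0 throughout a group, with standard errors, for the values as deposited, after median centring and after quantile normalization. Dotted lines mark the median of all genes tested under each scaling, at 1.12, 1.597 and 0.04, and the sign depends on the scaling for LIN54 and RBBP4.

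The plot of differences under 3 scalings sets each member beside the median of all genes tested. That median was 1.12 for the values as deposited, 1.597 after centring and 0.04 after quantile normalization. It was -0.09 over the 7556 genes that were not listed at 0 throughout a group. Relative to the median of all genes tested, LIN9 lay 6.26 lower, MYBL2 1.85 lower, LIN37 1.62 lower, RBBP4 1.41 lower and E2F4 0.20 lower, while LIN54 lay 1.80 higher, on the log2 scale of the deposited values. These gaps depended on the genes tested and the scaling. With quantile normalization LIN9 lay at -5.14, MYBL2 at -0.52, LIN54 at -0.36, LIN37 at -0.24, RBBP4 at -0.05 and E2F4 at 0.85 from the median of the genes tested. Over the genes above 0 in all 6 libraries, a choice made after seeing the data, LIN9 lay at -4.96, MYBL2 at -0.54, LIN37 at -0.32, RBBP4 at -0.10, E2F4 at 1.11 and LIN54 at 3.11 from the median.

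Gene spans that overlap another gene can share reads. In the RefSeq annotation of assembly ARS-UCD2.0, which is not the annotation used for the counts, the spans of LIN37, LIN52, MYBL2, E2F4 and RBL1 overlapped no other gene, and those of the other 5 members did. LIN9 overlaps the protein-coding gene LOC101902123, LIN54 a microRNA gene and FOXM1 a long noncoding RNA gene, and no levels of these overlapping genes are given here. RBBP4 overlaps SYNC, which was listed at 0 in every control library, while MT-treated libraries had 40.9, 29.1 and 30.7 TPM. RBL2 overlaps AKTIP, which had 0.15, 0.12 and 0.04 TPM in control and 37.0, 36.9 and 37.4 TPM in MT-treated libraries. The strand setting of the counting is not given in the sources used here, so the values of these 5 members carry this uncertainty.

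LIN9 and RBL1 had the largest fitted differences on the deposited scale, although with quantile normalization that of E2F4 exceeded that of RBL1. For these 2 members the tested genes with the most similar profile were found by the Euclidean distance of log2(TPM + 1) over the 6 libraries. AIRIM, BBS7 and GCM1 lay closest to LIN9, at distances of 0.23, 0.25 and 0.27. AIRIM had 38.6, 36.6 and 39.5 TPM in control and 0, 0.03 and 0.01 TPM in MT-treated libraries, and BBS7 and GCM1 were at 0 in each MT-treated library. CLMN, RNF24 and MTERF1 lay closest to RBL1, at 0.07, 0.11 and 0.12, and all of them were listed at 0 in every control library. CLMN had 10.8, 10.7 and 8.72 TPM in MT-treated libraries, lowest in the library where RBL1 was lowest. The genes were picked for this likeness, so it is no separate result.

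The proteins that pair with the members or resemble them were taken from a list of 16 genes. This list and those of kinases and target genes below were written with earlier results of these data known. Their calls and p-values are therefore given as a description. Of the 10 that could be tested, 4 were higher and 6 lower after MT (limma, adjusted p-value under 0.05), where 61.6% of all genes tested were higher and 34.1% lower. Their median log2 difference was -0.31, or -0.59 without the 2 genes listed at 0 in every control library, beside 1.12 and -0.09 for all genes tested. The split was 5 and 5 after median centring, where 70.4% of all genes tested were higher and 25.4% lower, and 3 higher and 7 lower with quantile normalization, where 46.4% and 44.4% were. RB1, the founding pocket protein, was listed at 0 in all 6 libraries, so RBL1 in the MT-treated libraries was the only pocket protein gene above 0. The other MYB genes, MYB and MYBL1, and the LIN54 paralog TESMIN were also at 0 in all 6, which left MYBL2 and LIN54 as the listed members of their families. RBBP7, the paralog of RBBP4, had 107.0, 107.0 and 106.6 TPM in control and 103.1, 103.2 and 99.3 TPM in MT-treated libraries (log2 difference -0.07, limma adjusted p = 0.0199). This call was lost without control replicate 1 (limma adjusted p = 0.0552) or control replicate 2 (limma adjusted p = 0.0533), and the difference reversed to 0.41 after centring and to 0.22 with quantile normalization. RBBP4 was 1.21 ± 0.0247 times as abundant as RBBP7 in control and 1.04 ± 0.0400 times in MT-treated blastocysts (SD, n = 3 each).

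E2F proteins bind DNA with a TFDP partner, and the partner genes moved in opposite directions. TFDP1 rose from 11.2 ± 0.61 to 49.6 ± 3.91 TPM (SD, n = 3 each), with a log2 difference of 2.05 (limma adjusted p = 2.59e-07). TFDP2 fell from 136.4 ± 0.811 to 33.5 ± 0.821 TPM (SD, n = 3 each), with a log2 difference of -1.99 (limma adjusted p = 2.7e-09). TFDP2 was 12.2 ± 0.617 times as abundant as TFDP1 in control and 0.679 ± 0.0692 times in MT-treated blastocysts, so the more abundant partner differed between the groups.

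Of the E2F genes outside the member list, E2F5, the closest relative of E2F4, fell from 52.3 ± 2.61 to 33.6 ± 2.005 TPM (SD, n = 3 each, log2 difference -0.63, limma adjusted p = 5.19e-05), with -0.15 after median centring and -0.35 with quantile normalization. E2F5 was 3.17 ± 0.23 times as abundant as E2F4 in control and 1.04 ± 0.0487 times in MT-treated blastocysts. The activator E2F3 fell from 55.7 ± 1.65 to 14.9 ± 0.343 TPM (SD, n = 3 each, log2 difference -1.83, limma adjusted p = 1.41e-08). E2F1 had 0.24, 0.18 and 0.16 TPM in control and 1.43, 1.19 and 1.48 TPM in MT-treated libraries, E2F6 was listed at 0 in control and had 5.63, 5.53 and 5.68 TPM, and E2F8 was listed at 0 in control and had 1.11, 1.06 and 1.10 TPM. With quantile normalization the differences of E2F1 and E2F8 turned to -1.29 and -0.58. E2F2 was at 0 in all 6 libraries, and E2F7 did not exceed 0.05 TPM. The corepressor genes that work with DREAM were both lower, with SIN3B falling from 26.9 ± 0.72 to 7.34 ± 2.63 TPM (SD, n = 3 each, log2 difference -1.80, limma adjusted p = 0.000402) and HDAC1 from 226.9 ± 0.246 to 154.2 ± 0.917 TPM (SD, n = 3 each, log2 difference -0.55, limma adjusted p = 5.88e-08). With quantile normalization the log2 difference was -3.26 for SIN3B and -0.34 for HDAC1, and after median centring HDAC1 had -0.07. SIN3B was the most variable gene of this list in MT-treated blastocysts among those tested, with 7.9, 4.48 and 9.64 TPM.

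**Figure D3:**
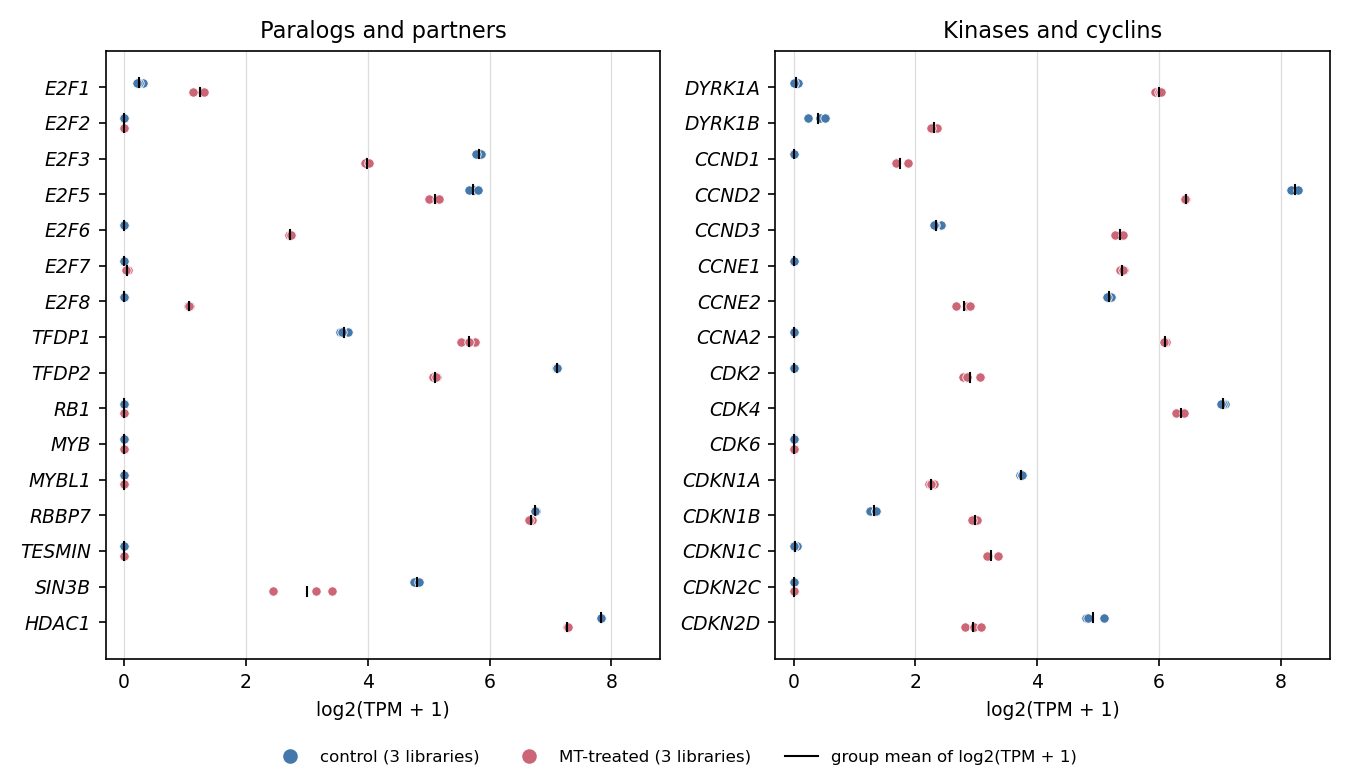
Level in log2(TPM + 1) of 16 paralogs and partners of the DREAM and MuvB proteins (left) and of 16 kinases, cyclins and kinase inhibitors that act on them (right), 1 point per library, blue for control and red for MT-treated, with black ticks at group means. TFDP1 and TFDP2 exchange places, and DYRK1A, CCNE1 and CCNA2 are at or near 0 in control only.

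Assembly and release of DREAM are set by kinases. DYRK1A phosphorylates LIN52 and thereby promotes the binding of a pocket protein, and cyclin-dependent kinases phosphorylate the pocket proteins and release them. Of 16 genes of this kind, 14 could be tested, with 9 higher and 5 lower after MT (64.3% and 35.7%, limma, adjusted p-value under 0.05), shares close to the 61.6% and 34.1% of all genes tested. With quantile normalization 5 were higher and 8 lower, where 46.4% and 44.4% of all genes tested were. The median log2 difference was 1.83, or 0.48 without the 4 genes listed at 0 in every control library, beside 1.12 and -0.09 for all genes tested.

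DYRK1A had 0.03, 0.05 and 0 TPM in control and 60.2, 63.2 and 64.6 TPM in MT-treated libraries (log2 difference 5.95, limma adjusted p = 5.83e-10). DYRK1B had 0.35, 0.43 and 0.18 TPM in control and 4.03, 4.09 and 3.76 TPM in MT-treated libraries, with a log2 difference of 1.91 that turned to -0.84 with quantile normalization. The substrate of DYRK1A in the core, LIN52, was listed at 0 in both groups.

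Among the cyclins of the D type, CCND3 rose from 4.08 ± 0.227 to 39.8 ± 2.03 TPM while CCND2 fell from 298 ± 11.2 to 85.4 ± 0.596 TPM (SD, n = 3 each), with log2 differences of 3.01 and -1.79 (limma adjusted p = 1.27e-08 and 1e-08). CCND2 was 73.2 ± 4.83 times as abundant as CCND3 in control and 2.15 ± 0.105 times in MT-treated blastocysts. CCND1 was listed at 0 in control and had 2.21, 2.66 and 2.20 TPM in MT-treated libraries, and its fitted log2 difference was -0.24 with quantile normalization. CCNE1 was listed at 0 in every control library, while MT-treated libraries had 42.0, 40.0 and 41.4 TPM, whereas CCNE2 fell from 35.1 ± 0.785 to 5.99 ± 0.573 TPM (SD, n = 3 each, log2 difference -2.37, limma adjusted p = 1.01e-07) and had -3.67 with quantile normalization. CCNA2 and its kinase CDK2 were both listed at 0 in control, CDK2 with 7.36, 5.89 and 6.15 TPM in MT-treated libraries. CDK4 fell from 131.3 ± 2.95 to 81.4 ± 3.92 TPM (SD, n = 3 each, log2 difference -0.68, limma adjusted p = 4.98e-06), with -0.20 after median centring and -0.41 with quantile normalization, and CDK6 was at 0 in all 6 libraries.

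Among the inhibitors of these kinases, CDKN1A (p21) fell from 12.4 ± 0.136 to 3.80 ± 0.136 TPM (SD, n = 3 each, log2 difference -1.48, limma adjusted p = 5.04e-08) and CDKN2D fell from 29.1 ± 3.55 to 6.75 ± 0.715 TPM (SD, n = 3 each, log2 difference -1.96, limma adjusted p = 3.22e-06). With quantile normalization these were -2.89 and -3.37. CDKN1B (p27) rose from 1.503 ± 0.0981 to 6.84 ± 0.255 TPM (SD, n = 3 each, log2 difference 1.65, limma adjusted p = 1.08e-07), which turned to -1.05 with quantile normalization. CDKN1C (p57) had 0, 0.04 and 0 TPM in control and 8.13, 8.06 and 9.22 TPM in MT-treated libraries, and its call was lost with quantile normalization (log2 difference 0.30, limma adjusted p = 0.18). CDKN2C was at 0 in all 6 libraries.

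The genes that DREAM silences fall into a G1/S class, bound through E2F sites, and a G2/M class, bound through LIN54 and later turned on by MYBL2 and FOXM1. Of 37 G1/S target genes, 34 could be tested, with 15 higher and 16 lower after MT (44.1% and 47.1%, limma, adjusted p-value under 0.05), against 61.6% higher and 34.1% lower among all genes tested. The split was 21 higher and 10 lower with median centring (70.4% and 25.4% of all genes tested) and 14 higher and 16 lower with quantile normalization (46.4% and 44.4%). The median log2 difference was -0.10, or -0.32 over the 29 genes not listed at 0 throughout a group, beside 1.12 and -0.09 for all genes tested. The replication licensing and fork genes held 7 higher and 9 lower of 18, the nucleotide supply genes 2 higher and 1 lower of 4, the checkpoint and repair genes 3 higher and 5 lower of 8, and the chromatin genes 3 higher and 1 lower of 4.

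The highest fitted log2 differences in the G1/S class were those of MCM10, ASF1B and CDC6. MCM10, which helps to start the replication fork, was listed at 0 in every control library, while MT-treated libraries had 58.3, 57.1 and 55.0 TPM. ASF1B, a histone chaperone, had 0.05, 0 and 0 TPM in control and 39.9, 41.7 and 43.9 TPM in MT-treated libraries, and CDC6, which loads the MCM helicase, was listed at 0 in control and had 22.7, 23.3 and 23.7 TPM. The largest fall was in the DNA repair gene BRCA1, from 7.57 ± 0.176 to 0.813 ± 0.163 TPM (SD, n = 3 each), with a log2 difference of -2.24 (limma adjusted p = 1.77e-07). MCM2, MCM6 and RRM2 were tested and not called, and POLE2 and UHRF1 were among the genes below the level for testing, these being named after their values were seen. POLE2 was at 0 in all 6 libraries.

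All 40 G2/M target genes could be tested, with 21 higher and 18 lower after MT (52.5% and 45%, limma, adjusted p-value under 0.05), against 61.6% and 34.1% of all genes tested. The split was 25 higher and 14 lower with median centring (70.4% and 25.4% of all genes tested) and 19 higher and 21 lower with quantile normalization (46.4% and 44.4%). The median log2 difference was 0.32, or 0.02 over the 37 genes not listed at 0 throughout a group, beside 1.12 and -0.09 for all genes tested. KIF23, a kinesin of cytokinesis, was the gene not called and is named after its values were seen. The mitotic kinases and regulators held 8 higher and 7 lower of 15, the spindle and cytokinesis genes 8 higher and 5 lower of 14, the kinetochore genes 3 higher and 3 lower of 6, the anaphase genes 2 higher and 1 lower of 3, and both chromosome genes were lower.

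The highest fitted log2 differences in the G2/M class were those of PLK1, NUSAP1 and BUB1. PLK1, the kinase that activates FOXM1 and drives mitosis, had 0, 0.04 and 0.02 TPM in control and 31.8, 30.3 and 32.8 TPM in MT-treated libraries (log2 difference 4.999, limma adjusted p = 8.1e-10). NUSAP1, a spindle protein, had 2.25 ± 0.424 TPM in control and 71.8 ± 3.97 TPM after MT (SD, n = 3 each). BUB1, a checkpoint kinase, was listed at 0 in control and had 14.4, 15.3 and 14.3 TPM in MT-treated libraries. The largest falls were in the spindle genes HMMR and ASPM and in the proliferation marker MKI67. HMMR fell from 34.7 ± 0.89 to 4.57 ± 0.268 TPM, ASPM from 30.7 ± 6.02 to 5.01 ± 0.10 TPM and MKI67 from 35.8 ± 0.906 to 8.73 ± 0.52 TPM (SD, n = 3 each), with log2 differences of -2.68, -2.38 and -1.92 and limma adjusted p-values of 1.1e-08, 4.49e-06 and 6.09e-08. With quantile normalization ASPM had -3.61 and MKI67 -3.46. ASPM was uneven in control, with 24.7, 30.7 and 36.8 TPM, all above the MT-treated values.

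**Figure D4:**
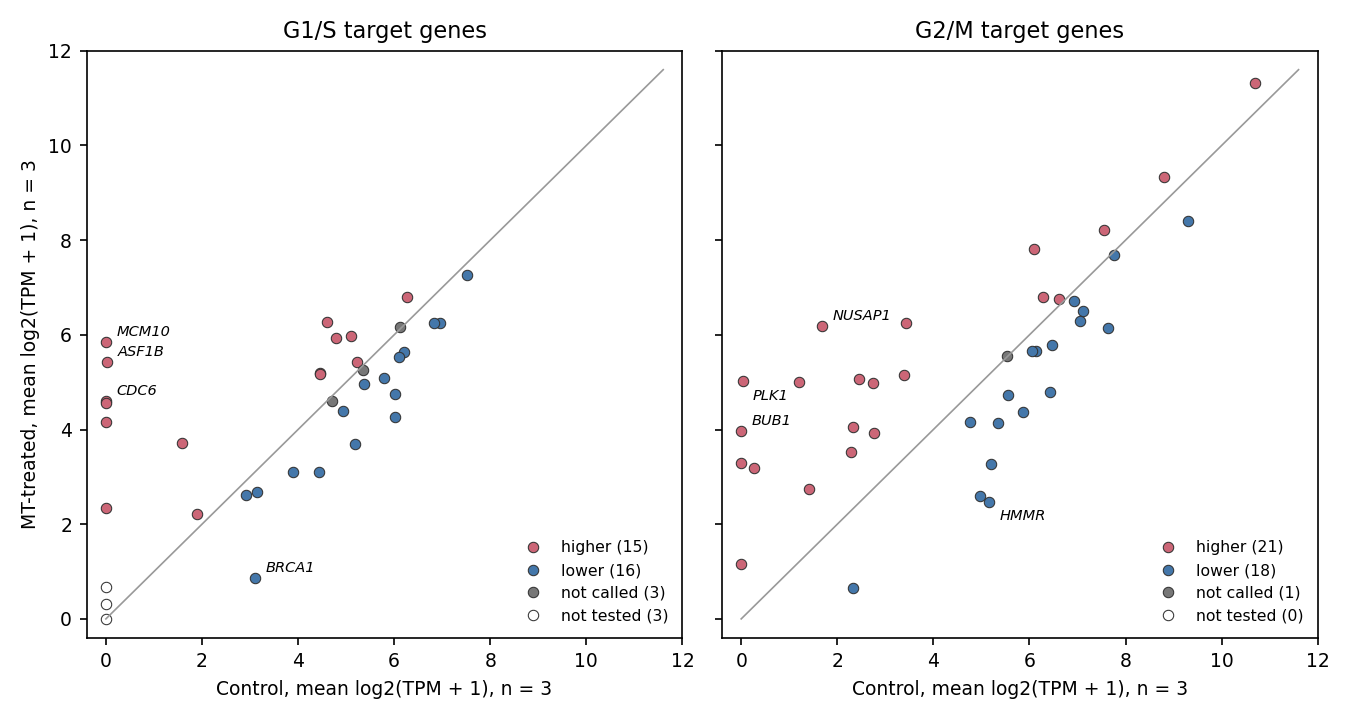
Mean log2(TPM + 1) of 3 control libraries (x axis) against that of 3 MT-treated libraries (y axis) for G1/S and G2/M target genes, colored by limma's call at an adjusted p-value under 0.05, with the line of equal level. In both classes genes lie on either side of the line, 15 higher and 16 lower in G1/S and 21 higher and 18 lower in G2/M.

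In the plot of target genes, called genes of both classes lay on both sides of the line of equal level. The genes listed at 0 in every control library were 5 of the 15 higher G1/S genes and 3 of the 21 higher G2/M genes, beside 4037 of the 7367 higher genes over the whole table, and no called target gene was listed at 0 in every MT-treated library.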

How the data were processed

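The authors deposited TPM per gene for 6 libraries, rounded to 2 decimals. Per the paper, fastp and FastQC served for read quality, STAR for alignment to ARS-UCD1.3 (the submitters' processing notes name ARS-UCD1.2) and featureCounts for counting, and the step to TPM is not given in the sources used here. The paper names Smart-seq2 and the labels a TruSeq kit. Groups came from the sample labels.

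Genes that reached 1 TPM in 3 or more libraries were fitted as log2(TPM + 1) with limma 3.58.1 (lmFit, eBayes with trend) in R 4.3.3, and p-values were adjusted over all 11953 genes with the Benjamini-Hochberg method. The log scale understates the change of low genes. Replicate numbers are not said to mark shared runs, and libraries were treated as unpaired. P-values set the difference between the groups against the spread between libraries of a group. They do not separate MT from a difference in how the groups were prepared.

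The members and gene lists were chosen with earlier results of these data known, and the lists were written from general knowledge. From each target list, the 3 highest and 3 lowest log2 differences among called genes without overlap between groups were named, and members, partners and kinases were all open to naming. Some genes of the G1/S list that this rule would name are not reported here. No sequence is given.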

Additional observations from a re-analysis of the deposited data

How the results depend on the processing

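The values were recomputed with quantile normalization or median centring, with 0.1 as the pseudocount, without the filter or with 5 TPM as its minimum, without the trend in eBayes, with the replicate number as a block and without each library. Keeping only genes above 0 in all 6 libraries was chosen after seeing the data. Among the 43 genes followed, 557 of 584 values under the 14 alternatives kept their direction and call or, for members, moved by less than the spread. Reversed values on the log2 scale were, with quantile normalization, -0.31 for LIN54, -1.29 for E2F1, -0.58 for E2F8, 0.22 for RBBP7, -0.84 for DYRK1B, -0.24 for CCND1 and -1.05 for CDKN1B and, with median centring, 0.19 for RBBP4 and 0.41 for RBBP7. Centring left 10 G1/S target genes lower in place of 16, and it removes a shift of -0.48 between the groups. With quantile normalization, kinases and cyclins were 5 higher and 8 lower in place of 9 and 5. A minimum TPM of 5, under which fewer genes are tested, left 2 partners higher in place of 4. Keeping only genes above 0 in every library, which removes genes listed at 0 in control, left 2814 genes higher in place of 7367, 2 partners in place of 4, 3 kinases and cyclins in place of 9 and 9 G1/S target genes in place of 15. With 1 library left out, 7319 to 7338 genes were higher and 4004 to 4049 lower, 5 to 6 partners were lower, and 15 to 16 G1/S target genes were higher and 16 to 17 lower. The deviations of same-numbered libraries from their group means had correlations of -0.01, -0.0007 and 0.06. Such values cannot show whether same-numbered libraries share a run. With the replicate block, 7379 genes were higher and 4082 lower, and 17 in place of 16 G1/S target genes were lower. TPM gives no depth, so values under 1 TPM are reported without counting error.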
